A study of Mus musculus with 12 samples.

Results

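The serpins, the family of serine protease inhibitors and their non-inhibitory relatives, were followed through carbon tetrachloride injury in mouse hepatocytes with and without Yap and Taz. The members were all gene rows whose symbol begins with Serpin followed by a clade letter from a to i and a number, Serping1 included. This gave 64 of the 37141 rows of the count table. Of these, 18 had no count in any library, 18 had counts but too few to be tested, and 28 were among the 10780 genes tested. Clade A supplied 16 of the tested members, clade B 5 and clade F 2, while neither member of clade I was tested.

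The libraries came from 4 groups of 3. In the group Yap/Taz KO + CCl4, mice with floxed Yap and Taz alleles received an adeno-associated virus of serotype 8 carrying Cre under the hepatocyte-specific TBG promoter and, 3 weeks later, CCl4 at 1 ml/kg in corn oil by intraperitoneal injection, and were killed 48 hours after it. In ctrl + CCl4, mice of the same floxed strain, with an effective genotype of WT, received CCl4 only, at the same dose and time. The Yap/Taz KO mice received the Cre virus and were killed 3 weeks later without injury, and the ctrl mice have no treatment in the labels. All groups therefore carry the floxed alleles, and a control virus or an oil injection is not named for any of them. Livers were perfused with collagenase, and 500000 cells per library were sorted by flow cytometry. The sources used here do not give the gate or say whether each library is a separate animal. All p-values thus reflect spread among libraries, which may be technical.

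A serpin traps its protease by offering an exposed loop as bait: once cut, the serpin snaps into a new fold and holds the enzyme in a dead complex. The liver makes most of the serpins of blood plasma, which restrain neutrophil elastase, thrombin, plasmin and the first complement protease, and some family members have given up inhibition and carry hormones instead. Clade A holds the antitrypsin and antichymotrypsin genes and the hormone carriers, clade B the intracellular serpins, and clades C to H mostly single specialists such as antithrombin and the collagen chaperone HSP47.

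In human a single gene, SERPINA1, encodes antitrypsin, the inhibitor of neutrophil elastase, whereas the mouse table has 5 tested copies, Serpina1a to Serpina1e. They lie on the minus strand of chromosome 12, where 15 of the 16 tested clade A genes sit between positions 103614786 and 104414329 (GRCm38, GENCODE M21). The promoter segments of these 5 genes are shown because, in Yap/Taz KO, Serpina1e rose after injury while Serpina1b, Serpina1c and Serpina1d fell. Each line gives 126 bases upstream of the RefSeq start (GRCm38.p6), read 5′ to 3′ on the gene's strand. Capitals mark GTTAAT, the half-site by which the liver factor HNF1 is known to recognise DNA.
Serpina1a (chr12:103863625-103863750, minus strand): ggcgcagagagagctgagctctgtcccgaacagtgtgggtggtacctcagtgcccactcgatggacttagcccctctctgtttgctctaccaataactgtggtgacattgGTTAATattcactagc
Serpina1b (chr12:103738200-103738325, minus strand): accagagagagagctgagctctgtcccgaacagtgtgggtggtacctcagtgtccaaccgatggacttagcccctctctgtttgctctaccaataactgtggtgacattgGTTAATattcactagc
Serpina1c (chr12:103904962-103905087, minus strand): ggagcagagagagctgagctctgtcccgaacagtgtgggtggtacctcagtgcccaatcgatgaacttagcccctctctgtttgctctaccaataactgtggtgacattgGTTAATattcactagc
Serpina1d (chr12:103773634-103773759, minus strand): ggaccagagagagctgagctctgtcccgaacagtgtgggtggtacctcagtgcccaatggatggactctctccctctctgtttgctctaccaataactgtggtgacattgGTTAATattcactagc
Serpina1e (chr12:103956960-103957085, minus strand): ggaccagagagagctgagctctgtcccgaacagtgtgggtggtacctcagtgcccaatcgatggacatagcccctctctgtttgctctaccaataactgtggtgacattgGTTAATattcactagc

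The segments were close to identical, at 91.4% to 97.6% over the 10 pairs, with 3 to 11 differing positions. Serpina1e, the gene that rose in Yap/Taz KO, differed from Serpina1c at 3 positions and from Serpina1a at 4. A run of 59 bases around the half-site was shared by all 5 genes and stood in 5 of the 32851 promoter windows of the RefSeq table. GTTAAT was found on either strand in 7.1% of those windows (250 bases before to 50 after the start). Among the 21 tested serpins with a window in the table, 8 held it, the other 3 being Serpina3c, Serpina7 and Serpinb8. The half-site began 16 to 27 bases before the RefSeq start in Serpina1a to Serpina1d, and 78 bases before it in Serpina1e. These distances depend on the annotation. In GENCODE M21 the genes Serpina1e and Serpina1b start further upstream, at 103958975 and 103830373, and their segments lie inside the gene span.

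Reads were counted near transcript 3′ ends, so the copies can be told apart only where those ends differ. In the last 500 transcript bases, the ends of Serpina1a to Serpina1e were 93.3% to 95.8% identical to each other. Of the 75-base windows in that stretch, 99.3% were found in no other gene for Serpina1e, 91.5% for Serpina1b, 84.3% for Serpina1d, 76.1% for Serpina1c and 70.7% for Serpina1a. The other 23 tested serpins had no shared window. Values of Serpina1a to Serpina1d are therefore uncertain against each other, since the sources used here do not give the read length or the handling of shared reads, and in GENCODE M21 the span of Serpina1b covers Serpina1d and that of Serpina3m covers Serpina3k.

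Depth was 1617761 to 3028951 counts per library, of which serpins took 2.33% to 4.004%, and 28 to 39 serpins had at least 1 count in a library. Yap1 stood at 14.2 to 14.8 CPM (counts scaled to a common library size by trimmed mean of M values, the unit of all levels here) in Yap/Taz KO + CCl4 libraries against 50.4 to 65.3 CPM in ctrl + CCl4, and at 9.62 to 22.1 CPM in Yap/Taz KO against 40.1 to 71.6 CPM in ctrl. Wwtr1, which encodes Taz, was lower with less separation: 19.8 to 25.1 CPM in Yap/Taz KO + CCl4 against 32.5 to 34.6 CPM in ctrl + CCl4, and 10.1 to 18.2 CPM in Yap/Taz KO against 24.1 to 57.3 CPM in ctrl. Transcripts that mark other cell types were present too, and whether they came from sorted cells was not tested. Albumin was abundant everywhere (30980 to 96670 CPM), yet 12 macrophage markers together reached 2010 to 3040 CPM in Yap/Taz KO + CCl4, 2490 to 4360 CPM in ctrl + CCl4, 238 to 1150 CPM in Yap/Taz KO and 514 to 2780 CPM in ctrl. Among the ctrl libraries, replicate 1 held the most Ptprc, a leukocyte marker, at 60.2 CPM against 16.1 and 7.09 CPM in replicates 2 and 3, and the most Col1a1, at 29.9 CPM against 3.01 and 1.42 CPM.

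Injury changed 11 of 28 tested serpins in the knockout (Yap/Taz KO + CCl4 against Yap/Taz KO), with 5 higher and 6 lower at an edgeR adjusted p below 0.05. Over all tested genes, 9.42% were called higher and 8.35% lower in that comparison, and the median log2 fold change was -0.04 for the serpins and 0.03 for all genes. In ctrl hepatocytes (ctrl + CCl4 against ctrl), 12 of 28 serpins changed, 3 higher and 9 lower, where 10.5% of all tested genes were called higher and 12% lower. The median there was -0.46 for the serpins and 0.03 for all genes. With library totals in place of the trimmed mean scaling, all medians moved up by 0.37 and 0.36 in these comparisons, and the splits became 7 higher and 5 lower in Yap/Taz KO, and 5 higher and 6 lower in ctrl. Of all 10780 tested genes, library totals gave 1814 higher and 406 lower in Yap/Taz KO, and 1974 higher and 698 lower in ctrl.

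The injury comparisons of the 2 genotypes share no library. Higher in both were 3 serpins, Serpinb6a and Serpinb8 among them, which is 60% of the 5 higher in Yap/Taz KO and 100% of the 3 higher in ctrl. Serpina1b, Serpina1c, Serpina1d, Serpina6, Serpinc1 and Serpinf1 were lower in both, which is 100% of the 6 lower in Yap/Taz KO and 66.7% of the 9 lower in ctrl. No serpin was called in opposite directions. The same overlap was not counted over all tested genes, so it is not shown to be particular to the serpins. Serpina1e and Serpina7 passed the threshold as higher in Yap/Taz KO alone, and Serpina1a, Serpinf2 and Serping1 as lower in ctrl alone. With the main settings none of these differences between genotypes passed its own test. Without the filter on low counts, those of Serpina1e (edgeR adjusted p = 1.32e-07) and Serpina7 (edgeR adjusted p = 0.00657) passed.

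**Figure D1:**
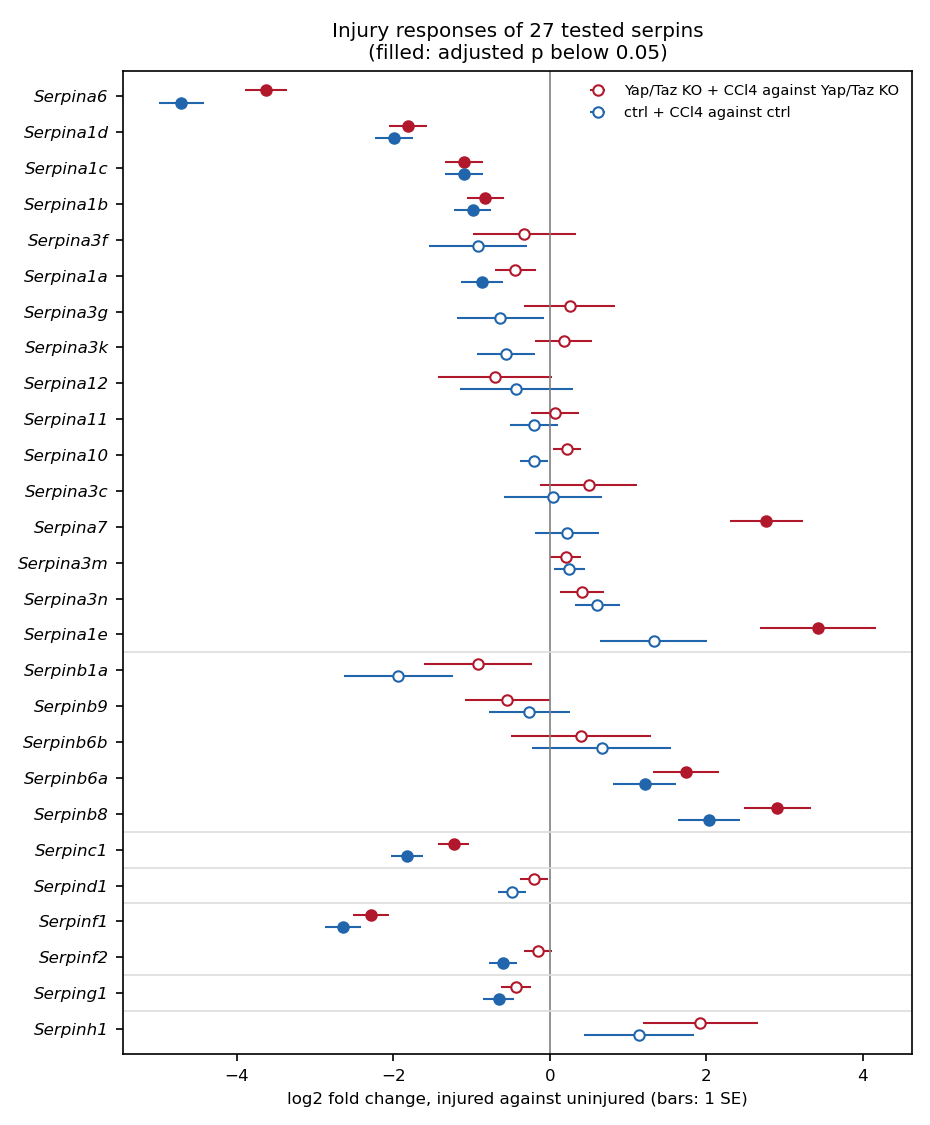
Log2 fold change after injury for 27 of the 28 tested serpins, grouped by clade (grey lines), for Yap/Taz KO (red, upper) and ctrl (blue, lower). Bars are 1 SE, and filled points have an edgeR adjusted p below 0.05. Serpina6 lies farthest to the left in both genotypes, and Serpina1e stands right of zero while Serpina1a to Serpina1d stand left of it.

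Within the antitrypsin cluster, Serpina1e rose after injury in Yap/Taz KO, while Serpina1b, Serpina1c and Serpina1d fell in both genotypes. Serpina1e had 7958, 7740 and 7222 CPM in Yap/Taz KO + CCl4 against 303, 188 and 1645 CPM in Yap/Taz KO. The injured libraries were close together and all far above the uninjured ones, whose own values spread widely. The rise in Yap/Taz KO was 10.7-fold (log2 fold change 3.43 ± 0.75 SE, edgeR adjusted p = 0.00533), and between 2.97 and 4.96 over the alternative settings, the upper value being without Yap/Taz KO replicate 3.

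In ctrl mice Serpina1e had 5101, 9211 and 2663 CPM after injury against 3608, 730 and 2447 CPM without it. These groups overlapped, and the difference did not pass the threshold (log2 fold change 1.33 ± 0.69 SE, edgeR adjusted p = 0.195). The lowest injured library stood below the highest uninjured one. Sex is not in the labels. Xist, the transcript of the silenced X chromosome, had 14 counts in ctrl + CCl4 replicate 2, the library with most Serpina1e of its group, and 44 counts in ctrl replicate 3, against 146 to 395 counts in the other 10 libraries, while Ddx3y, Eif2s3y and Uty, of the Y chromosome, had 0 counts in all 12. Without those 2 libraries the ctrl log2 fold change of Serpina1e was 0.84 (edgeR adjusted p = 0.581), a setting added after the data were seen.

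Serpina1d fell most in the cluster. It had 1568, 1675 and 1301 CPM in Yap/Taz KO + CCl4 against 4716, 6808 and 4474 CPM in Yap/Taz KO, and 1139, 1345 and 1007 CPM in ctrl + CCl4 against 5000, 3497 and 5440 CPM in ctrl. Neither pair of groups overlapped. The level was 3.52-fold lower after injury in Yap/Taz KO (log2 fold change -1.81 ± 0.24 SE, edgeR adjusted p = 0.000145) and 3.98-fold lower in ctrl (-1.99 ± 0.24 SE, edgeR adjusted p = 4.5e-05).

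Serpina1c had 3314, 3165 and 3420 CPM in Yap/Taz KO + CCl4 against 5792, 8653 and 6844 CPM in Yap/Taz KO, and 2710, 3693 and 2558 CPM in ctrl + CCl4 against 6322, 4697 and 8234 CPM in ctrl. Again all injured libraries were below the uninjured ones. Its log2 fold change was -1.10 ± 0.24 SE in both genotypes (edgeR adjusted p = 0.00583 in Yap/Taz KO and 0.00465 in ctrl). Serpina1b, at 3963 to 4836 CPM in Yap/Taz KO + CCl4 against 6226 to 9734 CPM in Yap/Taz KO, fell by 0.82 ± 0.23 SE on the log2 scale (edgeR adjusted p = 0.0237), a call lost with library totals (-0.43, edgeR adjusted p = 0.136) and without Yap/Taz KO + CCl4 replicate 1 or 3 or Yap/Taz KO replicate 2. In ctrl it fell by 0.99 ± 0.23 SE (edgeR adjusted p = 0.00716), with 3031 to 3891 CPM in ctrl + CCl4 against 5825 to 8458 CPM in ctrl.

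Serpina1a moved least. It had 1201, 1322 and 1332 CPM in Yap/Taz KO + CCl4 against 1462, 1767 and 2014 CPM in Yap/Taz KO, with no overlap but no call (log2 fold change -0.44 ± 0.26 SE, edgeR adjusted p = 0.282). In ctrl + CCl4 it had 1075, 1152 and 781 CPM against 1201, 1655 and 2647 CPM in ctrl, a log2 fold change of -0.87 (SE 0.27, edgeR adjusted p = 0.0283). That call was lost with library totals (-0.49, edgeR adjusted p = 0.162) and without ctrl replicate 3, ctrl + CCl4 replicate 1 or ctrl + CCl4 replicate 3.

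**Figure D2:**
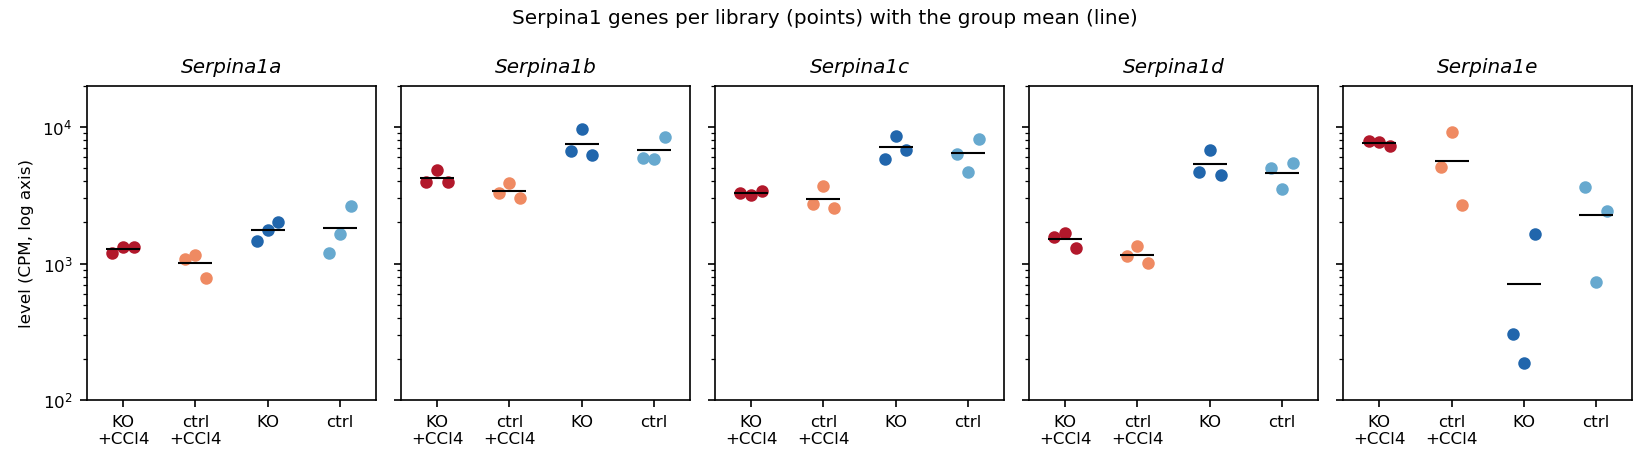
Level of each Serpina1 gene in CPM on a log axis, with a point for each library and a line at the group mean, in Yap/Taz KO + CCl4, ctrl + CCl4, Yap/Taz KO and ctrl from left to right. Serpina1b, Serpina1c and Serpina1d are lower in both injured groups, and Serpina1e lies between 7222 and 7958 CPM in Yap/Taz KO + CCl4 against 188 to 1645 CPM in Yap/Taz KO.

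Expressed as a share of the cluster's counts, Serpina1e made up 42.5% ± 1.53 in Yap/Taz KO + CCl4 and 37.5% ± 10.6 in ctrl + CCl4, against 3.35% ± 3.85 in Yap/Taz KO and 9.91% ± 5.98 in ctrl (SD, n = 3 each). On this scale the injured and uninjured groups were apart in both genotypes: the lowest injured library stood at 26.5%, in ctrl + CCl4, and the highest uninjured one at 16.3%, in ctrl. Serpina1d made up 8.40% ± 0.743 in Yap/Taz KO + CCl4 and 8.51% ± 1.52 in ctrl + CCl4, against 23.7% ± 2.25 in Yap/Taz KO and 21.3% ± 1.30 in ctrl. The share of Serpina1a was nearly level, at 7.15%, 7.28%, 7.91% and 8.42% in the same order of groups. Such shares do not depend on the scaling between libraries, but that of Serpina1e also grows when Serpina1a to Serpina1d fall. Thus ctrl + CCl4 replicate 3 had 2663 CPM of Serpina1e and a share of 26.5%. In ctrl replicate 1 the level was higher, at 3608 CPM, and the share lower, at 16.3%. The separation of shares in ctrl therefore does not by itself show a rise in the level of Serpina1e, which was not called there.

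Summed over the cluster, the shares were close in all groups. Serpina1a to Serpina1e together took 60.1% ± 0.665 of all serpin counts in Yap/Taz KO + CCl4, 60.5% ± 6.29 in ctrl + CCl4, 62.1% ± 5.07 in Yap/Taz KO and 60.0% ± 7.89 in ctrl. Without Serpina1e, the other 4 genes took 34.6% ± 0.536 in Yap/Taz KO + CCl4 and 37.4% ± 3.56 in ctrl + CCl4, against 60.2% ± 7.17 in Yap/Taz KO and 53.7% ± 3.47 in ctrl.

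**Figure D3:**
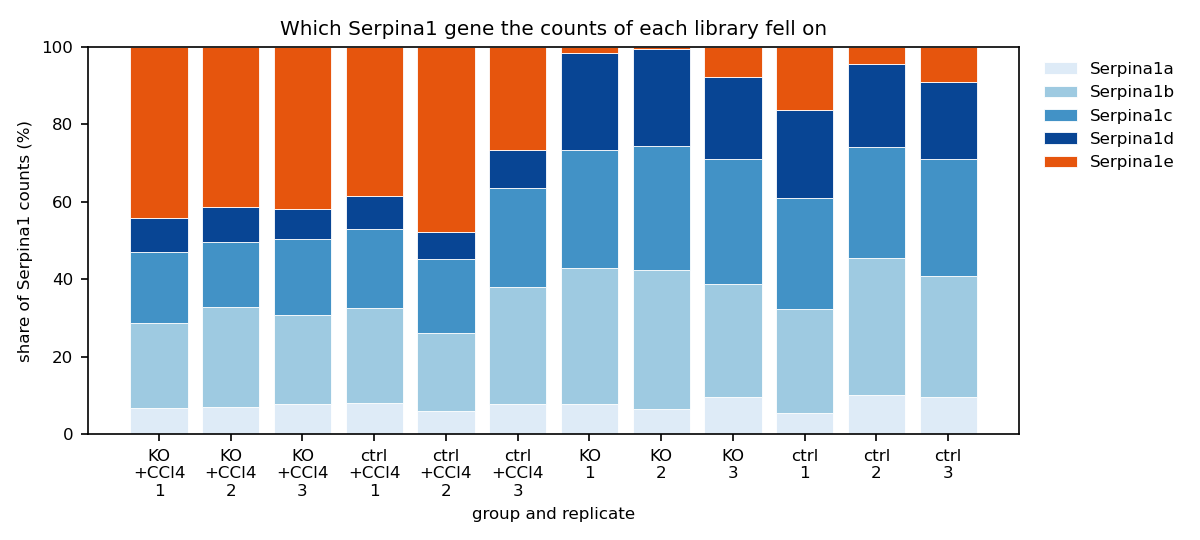
Share of each library's Serpina1a to Serpina1e counts that fell on each gene, in percent, with a bar for each of the 12 libraries. The orange Serpina1e segment is 26.5% to 47.7% in the injured libraries and 0.691% to 16.3% in the uninjured ones.

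The antichymotrypsin-like genes of clade A, which expanded in rodents from the counterpart of human SERPINA3, were not called in either injury comparison (6 tested: Serpina3c, 3f, 3g, 3k, 3m and 3n). Serpina3n, an inhibitor of granzyme B known as an acute phase gene in mouse, had 637, 747 and 535 CPM in Yap/Taz KO + CCl4 against 430, 669 and 350 CPM in Yap/Taz KO. These overlapped (log2 fold change 0.41, edgeR adjusted p = 0.361). It stood at 474, 504 and 478 CPM in ctrl + CCl4 against 191, 358 and 410 CPM in ctrl, with all injured libraries higher but no call (0.61 ± 0.29 SE, edgeR adjusted p = 0.152). Serpina3k, which binds tissue kallikrein, was the largest of the group by counts, at 6110 to 7223 CPM in Yap/Taz KO + CCl4 and 3836 to 5488 CPM in ctrl + CCl4, against 3220 to 8798 CPM in Yap/Taz KO and 3411 to 9923 CPM in ctrl. Its uninjured libraries spread around the injured ones.

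Other acute phase genes did change in the same libraries. Of 21 acute phase genes outside the family, 9 rose and 4 fell in Yap/Taz KO, and 7 rose and 4 fell in ctrl. Over all tested genes, 9.42% rose and 8.35% fell in Yap/Taz KO, and 10.5% rose and 12% fell in ctrl. Lcn2, the iron-siderophore binder lipocalin 2, and Saa2, a serum amyloid A, rose most in Yap/Taz KO, with log2 fold changes of 5.00 and 4.85 (edgeR adjusted p = 3.43e-07 and 9.19e-06). In ctrl, Saa2 and Saa1 led, with 4.48 and 4.34 (edgeR adjusted p = 1.19e-05 and 3.97e-06).

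In Yap/Taz KO, the hormone carriers of clade A went in opposite directions after injury. Serpina6, corticosteroid-binding globulin, which carries glucocorticoids in plasma and releases them when cut by elastase, had 41.2, 22.6 and 28.5 CPM in Yap/Taz KO + CCl4 against 471, 384 and 293 CPM in Yap/Taz KO. Its level in ctrl + CCl4 was 14.9, 14.9 and 12.8 CPM against 389, 326 and 406 CPM in ctrl. All injured libraries were far below all uninjured ones in both genotypes. The fall was 12.4-fold in Yap/Taz KO (log2 fold change -3.63 ± 0.27 SE, edgeR adjusted p = 1.65e-06) and 26.2-fold in ctrl (-4.71 ± 0.29 SE, edgeR adjusted p = 3.43e-07), the largest of any called serpin in each. In these bulk samples, fewer cells of a type and less RNA per cell cannot be told apart.

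Serpina7, thyroxine-binding globulin, an X-linked gene, had 33.0, 35.5 and 15.01 CPM in Yap/Taz KO + CCl4 against 5.94, 4.81 and 1.70 CPM in Yap/Taz KO. The 2 groups did not overlap, and the rise was 6.80-fold (log2 fold change 2.77 ± 0.46 SE, edgeR adjusted p = 0.000878). In ctrl + CCl4 it had 21.9, 18.5 and 18.3 CPM against 18.0, 21.1 and 10.6 CPM in ctrl, which overlapped (0.22 ± 0.41 SE, edgeR adjusted p = 0.744). The lowest of the 4 groups was thus uninjured Yap/Taz KO.

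The 3 remaining tested genes of clade A showed no call in either genotype. Serpina10, which restrains factor Xa with protein Z, stood at 241 to 251 CPM in Yap/Taz KO + CCl4 and 180 to 213 CPM in ctrl + CCl4, against 196 to 231 CPM in Yap/Taz KO and 208 to 253 CPM in ctrl. Serpina11 stood between 42.6 and 103 CPM over all libraries. Serpina12, the adipokine vaspin, stood between 3.24 and 53.9 CPM, with both extremes in the Yap/Taz KO group.

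Serpins of coagulation and fibrinolysis fell unevenly. Serpinc1, antithrombin, the main plasma inhibitor of thrombin and factor Xa, had 1138, 1034 and 1327 CPM in Yap/Taz KO + CCl4 against 2673, 2886 and 2649 CPM in Yap/Taz KO. It stood at 838, 815 and 683 CPM in ctrl + CCl4 against 2268, 2715 and 3331 CPM in ctrl. The groups were clearly apart, and the fall was 2.34-fold in Yap/Taz KO (log2 fold change -1.23 ± 0.20 SE, edgeR adjusted p = 0.000713) and 3.55-fold in ctrl (-1.83 ± 0.20 SE, edgeR adjusted p = 2.4e-05).

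Serpinf1, pigment epithelium-derived factor, which inhibits no protease and is known as an inhibitor of vessel growth, had 91.7, 95.9 and 93.8 CPM in Yap/Taz KO + CCl4 against 462, 474 and 440 CPM in Yap/Taz KO. Its level in ctrl + CCl4 was 78.3, 66.8 and 68.9 CPM against 324, 408 and 607 CPM in ctrl. Its injured libraries lay close together and well below the uninjured ones. It fell 4.88-fold in Yap/Taz KO (log2 fold change -2.29 ± 0.23 SE, edgeR adjusted p = 1.53e-05) and 6.24-fold in ctrl (-2.64 ± 0.23 SE, edgeR adjusted p = 5.04e-06).

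Its neighbour on chromosome 11, Serpinf2, encodes the main plasmin inhibitor alpha-2-antiplasmin and moved far less. Serpinf2 had 750, 812 and 839 CPM in Yap/Taz KO + CCl4 against 956, 877 and 835 CPM in Yap/Taz KO, which overlapped (log2 fold change -0.15 ± 0.17 SE, edgeR adjusted p = 0.613). In ctrl + CCl4 it had 619, 657 and 576 CPM against 821, 973 and 1014 CPM in ctrl, a fall of 0.60 ± 0.18 SE on the log2 scale (edgeR adjusted p = 0.0232). With library totals the ctrl value was -0.22 (edgeR adjusted p = 0.363), and the call was also lost without ctrl replicate 2 or 3 and without ctrl + CCl4 replicate 1 or 3.

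Serping1, the C1 inhibitor, which blocks the first complement proteases and plasma kallikrein, had 1130, 1077 and 917 CPM in Yap/Taz KO + CCl4 against 1480, 1454 and 1289 CPM in Yap/Taz KO. All injured libraries were lower, with no call (log2 fold change -0.43 ± 0.20 SE, edgeR adjusted p = 0.15). It stood at 975, 929 and 712 CPM in ctrl + CCl4 against 1538, 1152 and 1424 CPM in ctrl (-0.65 ± 0.20 SE, edgeR adjusted p = 0.0271). The ctrl call was lost with library totals (-0.29, edgeR adjusted p = 0.273) and without ctrl replicate 1 or 3 or ctrl + CCl4 replicate 2 or 3. Serpind1, heparin cofactor II, had 512 to 602 CPM in Yap/Taz KO + CCl4 against 615 to 669 CPM in Yap/Taz KO, and 364 to 418 CPM in ctrl + CCl4 against 486 to 644 CPM in ctrl. No overlap was seen and neither comparison was called (-0.20, edgeR adjusted p = 0.497, and -0.48, edgeR adjusted p = 0.0743).

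Many of the blood proteases that these inhibitors face are also made by hepatocytes. The list of these proteases also holds Mbl2, a lectin that binds such proteases and is not one itself. Of its 16 tested genes, Mbl2 among those that fell in both genotypes, 12 fell and 1 rose in Yap/Taz KO (median log2 fold change -0.98), and 13 fell and 1 rose in ctrl (median -1.11), beside an all-gene median of 0.03 in each. Hgfac, the activator of hepatocyte growth factor, fell by 1.44 in Yap/Taz KO (edgeR adjusted p = 0.000376) and by 2.07 in ctrl (edgeR adjusted p = 1.65e-05) on the log2 scale. Plau, urokinase, was the member that rose, with log2 fold changes of 5.91 ± 1.25 SE in Yap/Taz KO (edgeR adjusted p = 0.00453) and 2.87 ± 0.77 SE in ctrl (edgeR adjusted p = 0.0146). Which cells its transcripts came from was not tested.

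These falls occurred beside lower hepatocyte markers. Of 12 hepatocyte markers, 4 fell and none rose in Yap/Taz KO, and 8 fell and none rose in ctrl, with median log2 fold changes of -0.87 and -1.06. Their summed level was 114000 to 136000 CPM in Yap/Taz KO + CCl4 and 80500 to 100000 CPM in ctrl + CCl4, against 158000 to 187000 CPM in Yap/Taz KO and 141000 to 175000 CPM in ctrl, with none of the 12 at 0 in any group. Their part in the falls of the plasma serpins was not tested.

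**Figure D4:**
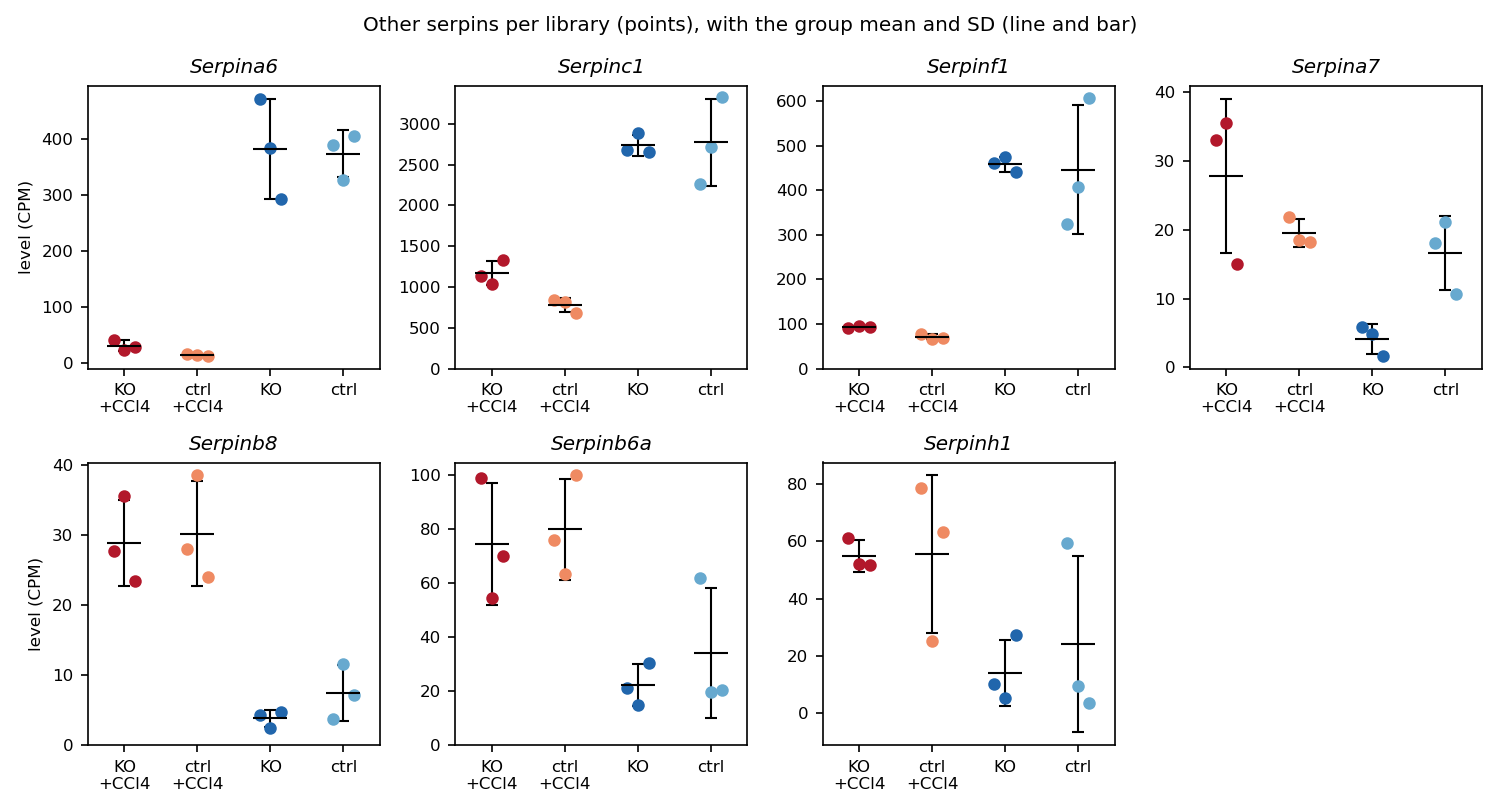
Level in CPM of 7 serpins outside the antitrypsin cluster, with a point for each library and the mean and SD of each group, in Yap/Taz KO + CCl4, ctrl + CCl4, Yap/Taz KO and ctrl from left to right. Serpina6, Serpinc1 and Serpinf1 are lower in both injured groups, Serpinb8 and Serpinb6a are higher in them, and the Serpina7 points are lowest in Yap/Taz KO.

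Of 10 tested genes of plasminogen activation and its receptors, 3 rose and 2 fell in Yap/Taz KO, and 3 rose and 4 fell in ctrl. Beside Plau, these included the urokinase receptor Plaur, with a log2 fold change of 5.12 ± 1.11 SE in ctrl (edgeR adjusted p = 0.00411), and Anxa2, annexin A2, which binds plasminogen at the cell surface, with 2.95 in Yap/Taz KO (edgeR adjusted p = 0.00123) and 2.98 in ctrl (edgeR adjusted p = 0.000811).

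The intracellular serpins of clade B were low in hepatocytes, and 2 of the 5 tested rose in both genotypes. Serpinb8, whose human counterpart inhibits furin, had 27.7, 35.5 and 23.5 CPM in Yap/Taz KO + CCl4 against 4.32, 2.41 and 4.67 CPM in Yap/Taz KO. Its level in ctrl + CCl4 was 28.1, 38.5 and 24.0 CPM against 3.69, 11.5 and 7.09 CPM in ctrl. The groups were apart, with a rise of 7.51-fold in Yap/Taz KO (log2 fold change 2.91 ± 0.43 SE, edgeR adjusted p = 0.000326) and 4.10-fold in ctrl (2.04 ± 0.40 SE, edgeR adjusted p = 0.00208).

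Serpinb6a, whose human counterpart inhibits cathepsin G, had 99.0, 54.4 and 70.0 CPM in Yap/Taz KO + CCl4 against 21.1, 14.9 and 30.6 CPM in Yap/Taz KO (log2 fold change 1.74 ± 0.42 SE, edgeR adjusted p = 0.00973). In ctrl + CCl4 it had 76.2, 63.4 and 100.2 CPM against 61.8, 19.6 and 20.6 CPM in ctrl (1.21 ± 0.41 SE, edgeR adjusted p = 0.0442). No library crossed between groups, but ctrl replicate 1 came close to the injured level. The ctrl call was lost without any library of ctrl + CCl4, without ctrl replicate 2 or 3, without any library of Yap/Taz KO + CCl4 and without Yap/Taz KO replicate 1. Its edgeR adjusted p lay between 0.000501 and 0.158 over all settings. Without ctrl replicate 1 the ctrl log2 fold change was 2.00 (edgeR adjusted p = 0.000716), over 1.5 times the value with it. The Yap/Taz KO call was lost without Yap/Taz KO + CCl4 replicate 1 (edgeR adjusted p = 0.0527) or Yap/Taz KO replicate 2 (edgeR adjusted p = 0.0518).

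Serpinb1a, an inhibitor of neutrophil elastase, proteinase 3 and cathepsin G, had 4.74, 2.43 and 6.09 CPM in ctrl + CCl4 against 14.3, 16.6 and 20.6 CPM in ctrl, without overlap and just short of the threshold (log2 fold change -1.94 ± 0.70 SE, edgeR adjusted p = 0.0589). It passed without Yap/Taz KO + CCl4 replicate 2 (edgeR adjusted p = 0.0328) or Yap/Taz KO replicate 3 (edgeR adjusted p = 0.0363), and with DESeq2 and limma-voom. In Yap/Taz KO + CCl4 it had 1.57, 11.3 and 2.81 CPM against 16.2, 11.6 and 2.55 CPM in Yap/Taz KO, which overlapped. Serpinb9, the granzyme B inhibitor, stood between 2.83 and 21.3 CPM and Serpinb6b between 0 and 11.3 CPM over all libraries, and neither was called.

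The list of granule and lysosomal proteases set beside clade B is not limited to known targets of its serpins. It also holds the cytosolic caspases Casp1 and Casp8, neither of which was called. Of its 10 tested genes, 4 rose and none fell in Yap/Taz KO, and 4 rose and 2 fell in ctrl. Prtn3, proteinase 3 of neutrophil granules, rose most, with log2 fold changes of 6.56 ± 1.15 SE in Yap/Taz KO (edgeR adjusted p = 0.0012) and 2.36 ± 0.75 SE in ctrl (edgeR adjusted p = 0.0346). Next came Ctsk, cathepsin K, in Yap/Taz KO (3.97, edgeR adjusted p = 0.0445) and Ctsd, cathepsin D, in ctrl (1.79, edgeR adjusted p = 0.000251).

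Serpinh1, HSP47, the endoplasmic reticulum chaperone of collagen, was not called in either genotype. It had 61.3, 51.9 and 51.6 CPM in Yap/Taz KO + CCl4 against 10.3, 5.29 and 27.2 CPM in Yap/Taz KO, and all injured libraries were higher (log2 fold change 1.93 ± 0.73 SE, edgeR adjusted p = 0.0848). It stood at 78.3, 25.2 and 63.1 CPM in ctrl + CCl4 against 59.4, 9.53 and 3.54 CPM in ctrl, which overlapped because of ctrl replicate 1 (1.14 ± 0.70 SE, edgeR adjusted p = 0.276). Without ctrl replicate 1, Serpinh1 rose in ctrl (3.02, edgeR adjusted p = 0.00265) and in Yap/Taz KO (1.92, edgeR adjusted p = 0.0108). In Yap/Taz KO it also passed when ctrl replicate 3 was omitted (edgeR adjusted p = 0.0427) or Yap/Taz KO replicate 3 (2.83, edgeR adjusted p = 0.0472). It passed there as well with limma-voom (2.18, limma adjusted p = 0.0439) and in a fit of the 6 libraries compared (1.93, edgeR adjusted p = 0.00993). Without ctrl replicate 3 and ctrl + CCl4 replicate 2 together its adjusted p was 0.0376 with edgeR. Without the filter on low counts it passed in Yap/Taz KO (edgeR adjusted p = 1.79e-07) and in ctrl (edgeR adjusted p = 0.00267). Of 20 tested genes of collagens and their folding, 8 rose in Yap/Taz KO and 7 in ctrl, and none fell. Col1a1, a chain of type I collagen, led them with log2 fold changes of 4.51 ± 0.78 SE (edgeR adjusted p = 0.00113) and 3.87 ± 0.75 SE (edgeR adjusted p = 0.00192) in the same order.

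Markers of other cells were higher beside the serpins that rose. Of 12 macrophage markers, none of them at 0 in any group, 4 rose in Yap/Taz KO and 3 in ctrl. Of 12 stellate and mesenchymal markers, 7 rose in Yap/Taz KO and 5 in ctrl, and their sum was 1800 to 2000 CPM in Yap/Taz KO + CCl4 and 1190 to 2250 CPM in ctrl + CCl4, against 316 to 863 CPM in Yap/Taz KO and 335 to 1450 CPM in ctrl. Of 7 tested monocyte and neutrophil markers, all 7 rose in Yap/Taz KO and 4 in ctrl, and the sum of the 12 listed was 158 to 225 CPM in Yap/Taz KO + CCl4 and 173 to 306 CPM in ctrl + CCl4, against 7.70 to 25.9 CPM in Yap/Taz KO and 24.1 to 122 CPM in ctrl, with Ly6g at 0 throughout. None of 12 endothelial, 2 lymphocyte and 1 mesothelial markers tested was called in either genotype, 1 of 3 cholangiocyte markers rose in both, and 2 of 4 erythroid markers fell in ctrl. The part of other cell types in the rises of Serpinb8 and Serpinb6a and in the values of Serpinh1 was not tested.

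Read by clade, the same changes shifted the make-up of the serpin counts. Clade A took 87.1% ± 0.966 in Yap/Taz KO + CCl4 and 87.0% ± 2.10 in ctrl + CCl4, against 82.5% ± 2.96 in Yap/Taz KO and 82.9% ± 1.56 in ctrl (SD, n = 3 each), and all injured libraries were above all uninjured ones. Clade C, which is antithrombin alone, took 3.91% ± 0.659 and 3.44% ± 0.513 in the injured groups against 7.69% ± 1.06 and 7.65% ± 0.907 in the uninjured ones, also without overlap. Clade B took 0.416% ± 0.0677 in Yap/Taz KO + CCl4 and 0.627% ± 0.213 in ctrl + CCl4, against 0.144% ± 0.0621 in Yap/Taz KO and 0.223% ± 0.0827 in ctrl.

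Clades D and G overlapped between injured and uninjured groups of both genotypes, and clades F and H did so in ctrl. These are shares of counts in 3′ libraries, in which a transcript gives reads at its end whatever its length, and shares of a fixed total move together, so a higher share of a clade is not a higher level.

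**Figure D5:**
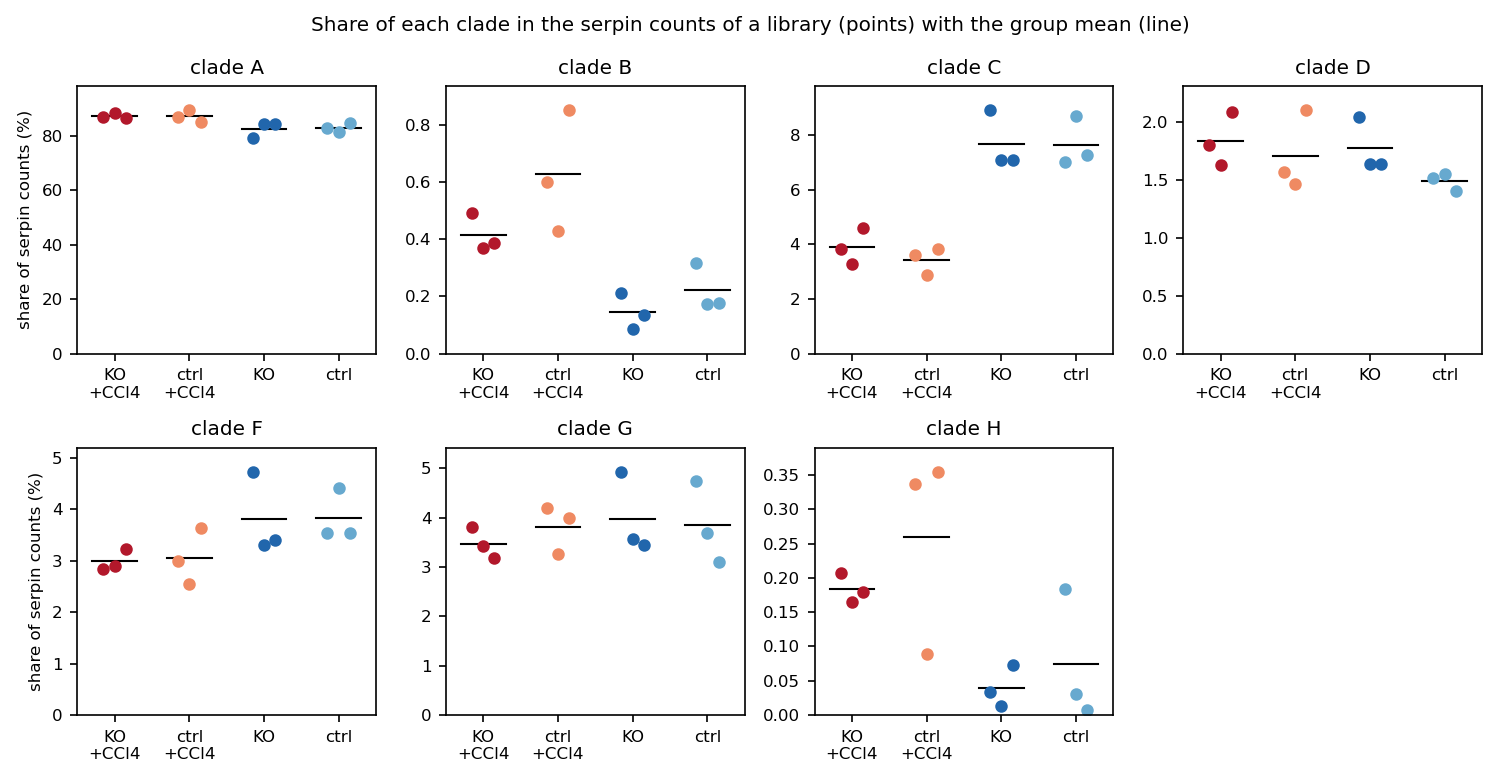
Share of 7 clades in the serpin counts of a library, in percent, with a point for each library, a line at the group mean and a scale of its own in each panel. Clades A and B are higher and clade C lower in both injured groups (Yap/Taz KO + CCl4 and ctrl + CCl4, left) than in Yap/Taz KO and ctrl (right).

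Without injury, no serpin was called between Yap/Taz KO, for which alone of the 2 groups the virus is named, and ctrl. Yap1 itself was not called either, though its libraries were apart, at 9.62 to 22.1 CPM against 40.1 to 71.6 CPM. An absence of calls is therefore not shown to be an absence of effect. In Yap/Taz KO against ctrl, 0 of 28 serpins and 0% of all tested genes passed the threshold with edgeR, and limma-voom called 0. An unadjusted edgeR p below 0.05 was reached by 2 of the 28 serpins, beside 1020 of all 10780 genes tested. DESeq2 called Serpina7 alone (DESeq2 adjusted p = 0.0224), where it called 0.472% of the genes it adjusted. Serpina7 was lower in each Yap/Taz KO library than in each ctrl library, with a log2 fold change of -2.03 ± 0.48 SE (edgeR adjusted p = 0.235). The other was Serpina1e, whose groups overlapped (-1.67 ± 0.70 SE, edgeR adjusted p = 0.488). Without Yap/Taz KO replicate 3 its difference was -3.20 (edgeR adjusted p = 0.229), again not called. For the serpins that fell with injury, the 95% interval of the knockout effect on the log2 scale was -0.48 to 0.54 for Serpina6, -0.44 to 0.40 for Serpinc1, -0.42 to 0.51 for Serpinf1 and -0.30 to 0.69 for Serpina1d.

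After injury, in Yap/Taz KO + CCl4 against ctrl + CCl4, 0 of 28 serpins and 0% of all tested genes were called with edgeR. Yap1 was again not called. Here 4 of the 28 serpins had an unadjusted edgeR p below 0.05, beside 613 of all 10780 genes tested. Limma-voom called 0, and DESeq2 called Serpina6 alone (DESeq2 adjusted p = 0.0498), beside 0.295% of the genes it adjusted. Serpina6 stayed higher in each Yap/Taz KO + CCl4 library than in any ctrl + CCl4 library (log2 fold change 1.11 ± 0.26 SE, edgeR adjusted p = 0.535). The same ordering held for Serpinc1 (0.58 ± 0.20 SE, edgeR adjusted p = 0.803), Serpind1 (0.51 ± 0.18 SE, edgeR adjusted p = 0.803) and Serpinf2 (0.37 ± 0.18 SE, edgeR adjusted p = 0.876). At an unadjusted edgeR p above 0.05, it also held for Serpina10, Serpina1a, Serpina1b, Serpina3k, Serpina3m, Serpina3n and Serpinf1. Serpinb9 was lower in each Yap/Taz KO + CCl4 library. The median log2 fold change was 0.26 for the serpins and -0.01 for all genes. Hepatocyte markers were likewise higher in Yap/Taz KO + CCl4 than in ctrl + CCl4 in every library, by the sums given above, and their part in this ordering was not tested.

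The difference between the injury responses of Yap/Taz KO and ctrl was tested directly. EdgeR called 0 of 28 serpins and 0% of all tested genes. DESeq2 and limma-voom called 0 serpins, DESeq2 calling 0.111% of the genes it adjusted. With edgeR, 4 of the 28 serpins had an unadjusted p below 0.05, beside 874 of all 10780 genes tested. The 4 were Serpina7 (difference in log2 fold change 2.54 ± 0.62 SE, 95% interval 1.23 to 3.86, edgeR adjusted p = 0.533), Serpina6 (1.08 ± 0.35 SE, edgeR adjusted p = 0.533), Serpina1e (2.10 ± 0.97 SE, edgeR adjusted p = 0.614) and Serpinc1 (0.60 ± 0.28 SE, edgeR adjusted p = 0.614). For the serpins called in ctrl alone, the differences were 0.43 ± 0.37 SE for Serpina1a, 0.45 ± 0.25 SE for Serpinf2 and 0.22 ± 0.28 SE for Serping1 (edgeR adjusted p = 0.782, 0.643 and 0.854). Without Yap/Taz KO replicate 3 the difference for Serpina1e was 3.64 (edgeR adjusted p = 0.693), likewise not called. The different call patterns of the 2 genotypes are therefore not shown to be different responses.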

How the data were processed

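Polyadenylated RNA of sorted hepatocytes was made into QuantSeq FWD 3′ libraries, per the labels' protocols. The authors deposited 1 table of raw counts per gene symbol for the 12 libraries, and its whole-number columns of unequal totals show no scaling. The submitters' processing notes list FastQC, cutadapt and STAR 2.6.1d, with GRCm38 (mm10) as build, and the sources used here do not give the counter.

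Genes with at least 10 counts in enough libraries and 15 in total (filterByExpr) were scaled by trimmed means of M values, with factors of 0.776 to 1.312. They were fitted over the 4 groups with the quasi-likelihood test of edgeR 4.0.16 (R 4.3.3, limma 3.58.1), which was tested on simulated data. There were 5 comparisons, each adjusted by Benjamini and Hochberg over all genes tested, with a threshold of 0.05. CPM divides counts by the scaled library total. A 95% interval spans the t quantile times SE. Counting error alone limits genes of few counts, most of all the untested ones.

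DESeq2 1.42.0, limma-voom, other scalings and filters, a replicate block, fits of 6 libraries and omission of each library were tried. Gene positions came from GENCODE M21, and promoters from RefSeq, matched by symbol. The members and gene lists were chosen with earlier results of these data known. Full values are given for serpins past the threshold and for named clade members, and other genes are the 2 largest called changes of their list. No replicates were duplicates: chi-square per degree of freedom between libraries of a group was 8.56 to 26.61. The values of 1 tested member are not reported here, though it stays in the counts.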

Additional observations from a re-analysis of the deposited data

How the results depend on the processing

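Of 23 serpin calls in the injury comparisons, 16 passed in all 21 alternative settings, 7 were lost in at least 1, and none changed sign. The injury counts lay between 8 and 14 serpins in ctrl (main value 12) and between 9 and 12 in Yap/Taz KO (main value 11). In ctrl the count was 8 without ctrl replicate 3 or without ctrl + CCl4 replicate 3. The 0 calls of the knockout comparisons became 2 without injury and 1 after injury when genes of low counts were not filtered, and 1 each with DESeq2. Without the filter the difference between injury responses gave 2 calls, Serpina1e and Serpina7, and Serpina1e also passed in ctrl (edgeR adjusted p = 1.97e-07). The cause was not tested. The mean summed level of clade A was 26110 CPM in Yap/Taz KO + CCl4 against 29880 CPM in Yap/Taz KO. With library totals it was 28370 CPM against 25080 CPM, so its direction in the knockout depended on the scaling. In ctrl + CCl4 it was lower than in ctrl with both, at 20230 against 30340 CPM, and 23830 against 27780 CPM with library totals. The difference between injury responses of Serpinb1a was 1.02, and between -0.22 (without Yap/Taz KO + CCl4 replicate 2) and 1.53 (without Yap/Taz KO replicate 1) over the settings, called in none.

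The labels state no pairing of libraries by replicate number. Deviations of same-numbered libraries from their group means correlated between -0.15 and 0.32 over 12 pairs, 7 of them below 0. With 3 libraries per group, such correlations cannot exclude a shared litter or day. A replicate block gave 12 calls in ctrl, 12 in Yap/Taz KO, where it added Serpinh1 (2.05, edgeR adjusted p = 0.0393), and 0 in each other comparison.

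With 3 libraries per group and 1617761 to 3028951 counts each, serpins of a few CPM rest on few reads, and effects as small as those of Serpinf2 and Serping1 changed calls with single libraries or with the scaling.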

Other observations

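Among the 18 serpins with counts but no test, totals over the 12 libraries were 1 to 65. Serpinb2, plasminogen activator inhibitor 2, had 3, 18 and 1 counts in Yap/Taz KO + CCl4 and 3, 1 and 3 in ctrl + CCl4, against 0 in every Yap/Taz KO and ctrl library. Serpinb10, an intracellular serpin of blood cells, had 1, 2 and 4 counts in Yap/Taz KO + CCl4 and 1, 7 and 0 in ctrl + CCl4, and again 0 in all uninjured libraries. Serpine2, protease nexin 1, a thrombin inhibitor of connective tissue cells, had the highest total, with 10, 4 and 16 counts in Yap/Taz KO + CCl4 and 3, 1 and 19 in ctrl + CCl4, against 1, 2 and 3 in Yap/Taz KO and 6, 0 and 0 in ctrl. Of the 12 counts of Serpini2, a serpin known from pancreas, 10 fell in Yap/Taz KO + CCl4 replicate 2, the library with 18 of the 29 Serpinb2 counts. These members were singled out after their values were seen.

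Of 22 tested protease inhibitors outside the serpin fold, 3 rose and 3 fell in Yap/Taz KO (median log2 fold change 0.11), where 9.42% of all tested genes rose and 8.35% fell. In ctrl 3 rose and 5 fell (median -0.21), where 10.5% of all tested genes rose and 12% fell. Timp1, the tissue inhibitor of metalloproteinases, had log2 fold changes of 6.97 ± 0.79 SE in Yap/Taz KO (edgeR adjusted p = 4.07e-05) and 6.71 ± 0.80 SE in ctrl (edgeR adjusted p = 4.08e-05). Slpi, a secreted inhibitor of leukocyte elastase and so of the same enzyme as antitrypsin, followed with 2.98 ± 0.65 SE in Yap/Taz KO (edgeR adjusted p = 0.0052) and 3.35 ± 0.59 SE in ctrl (edgeR adjusted p = 0.000949).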
